A study of Mus musculus with 10 samples.

Results

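The genes described here encode the eukaryotic translation initiation factors of the mouse, with their regulators and pseudogenes. They were taken as the rows of the deposited expression table whose gene name begins with Eif and a digit from 1 to 6, leaving out Eif4enif1, a binding partner of eIF4E that is not an initiation factor. This gave 58 of the 21437 rows, of which 52 were annotated as protein-coding and 6 as processed pseudogenes. The rows of Eif2s3x and Eif3a were not analysed here. Of the 58 members, 49 reached 1 FPKM in at least 2 libraries and were tested together with all 8726 genes that did so, and the other 9 members are given by their values alone.

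Initiation factors bring the ribosome to the start codon of an mRNA. The eIF4E protein binds the cap, eIF4G joins it to the helicase eIF4A and to eIF3 on the small ribosomal subunit, and eIF2 delivers the initiator tRNA, after which eIF2B recharges eIF2 with GTP. In the oocyte and the early embryo, transcription is silent for a time, so that protein synthesis draws on stored maternal mRNAs until the embryo's own genome becomes active.

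RNA-seq libraries came from MII oocytes at 16 h, from middle 2-cell embryos at 40 h and from early 4-cell embryos at 55 h after injection of human chorionic gonadotropin (hCG). The control groups carry the genotype wild type in the labels, and in the Ago2 kd groups siRNAs against Ago2 (Argonaute 2, the slicing enzyme of RNA interference) were injected into zygotes together with antibodies to the protein, while a scrambled siRNA is named as the negative control of the study; the labels do not say whether the control embryos sequenced were injected. Oocytes and zygotes came from superovulated females 7 weeks old; the labels give the strain ICR for every sample, whereas the Methods give ICR for the oocytes and crosses of F1 mice for the embryos, so strain and stage cannot be told apart between oocytes and embryos. Each of the 5 groups (MII oocyte, 2-cell control, 2-cell Ago2 kd, 4-cell control and 4-cell Ago2 kd) held 2 libraries, and nothing says whether these came from separate collections of embryos, so that p-values measure the spread between these libraries. Ago2 itself, the gene targeted, was not analysed here, so the knockdown could not be checked.

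Levels are in FPKM, read fragments scaled by the length of the transcript and the size of the library, so that they can be set side by side between genes. FPKM give no read counts, so the depth is unknown, and a value is a share of the RNA in its library, so a fall cannot be told apart from a rise in other RNAs, nor fewer cells holding a transcript from less of it in each cell. Summed FPKM ranged from 178681 to 458874 over the libraries. Of the stage markers, 8 genes of oocytes and cleavage embryos had 7108 to 8657 summed FPKM in oocytes against 82.5 to 126 in 4-cell controls. The 4 genes of the 2-cell stage summed to 309 to 363 FPKM in 2-cell controls, 0 to 0.113 in oocytes and 71.2 to 145.5 in 4-cell controls. Zfp352 and Usp17lc were lower in 4-cell than in 2-cell controls. Tdpoz4 was higher, with 65.0 and 144.7 FPKM against 48.4 and 62.3 FPKM. Zscan4d had 51.4 FPKM in 2-cell control replicate 1 and was listed at 0 in replicate 2. Of 9 cumulus and granulosa cell markers, 2 had a row, Amhr2 and Foxl2, and both were listed at 0 in oocytes and 2-cell embryos. At the 4-cell stage Amhr2 reached 1.08 FPKM in controls and 1.75 FPKM in the knockdown, and Foxl2 stayed at 0. These 0s do not show that such cells were absent. Among genes above 10 FPKM in the fellow library, 14.6% were below 0.1 FPKM in 4-cell Ago2 kd replicate 1, against 1.61% to 5.81% in the other libraries. Among the initiation factor genes this share was 22.2% (8 of 36), and in 2-cell control replicate 1 it was 27.8% (5 of 18) against 4.84% of all genes.

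Many values were exactly 0. The table consists of 18 alphabetical blocks of rows, and from the third block on, nearly all blocks list over 99% of the values of 1 or more libraries at 0. In the block that holds Eif3b, Eif3d, Eif3e, Eif3l and Eif4e2, 1051 rows in all, over 99% of the values of each of the 4 libraries of 2-cell embryos were 0. Of the 58 members, 44 were in the first block, with 9.55% of their values at 0, and 14 in later blocks, with 62.1% at 0. A listed 0 can therefore not be told apart from a gene that was not reported for that library, and it is called here listed at 0.

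The promoters of 40 of the 58 members had an entry in RefSeq (GRCm38.p6), a window from 250 bases before to 50 after the start of the gene. These windows held a median of 23.5 CpG dinucleotides, against 7 over all 27025 promoters. The core CCGGAAG of ETS family factors, searched on both strands, was found in 14 of the 40 (35%), against 9.12% of all promoters, 21.7% of the 5424 promoters of genes tested and 28.9% of the 1056 promoters of genes that were higher in 4-cell than in 2-cell controls. Of 15 initiation factor genes with a promoter that were called higher at that step, 8 held it. The 8 include Eif3d, Eif3l and Eif4e2, and the rest of the 15 include Eif2b5, Eif3b and Eif3f. The calls of these 6 genes rest on listed 0s or on 4-cell libraries alone reaching 1 FPKM. No excess can therefore be read from the 8 of 15. Among the eIF3 subunits the core was found in 5 of 9 windows. The TATA box TATAAA was found in 4 of the 40 (10%), against 14.2% of all promoters and 7.23% of those of tested genes, and CCAAT in 12 (30%), against 37.9% and 40.6%. In the same order of backgrounds, the YY1 core AAGATGG was found in 4 (10%, against 6.48% and 8.04%) and the NRF1 core GCATGCGC in 3 (7.5%, against 2.8% and 6.31%). TAATCC, the core of OBOX and OTX factors, was found in 6 (15%, against 7.16% and 5.9%). A match says only that the letters are in the window. To show the shared letters, the 250 bases before the start of the 4 eIF3 genes that held it and had a higher value in both 4-cell than in both 2-cell controls are printed on the strand of the gene, with CCGGAAG or its reverse complement in capitals. For Eif3d and Eif3l the 2-cell values are the listed 0s of their block, so no difference between stages can be read from their choice. The 4 stretches lie at chr7:126566367-126566616 (minus strand) for Eif3c, at chr15:77970825-77971074 (minus strand) for Eif3d, at chr9:20898591-20898840 (minus strand) for Eif3g and at chr15:79074973-79075222 (plus strand) for Eif3l.
Eif3c: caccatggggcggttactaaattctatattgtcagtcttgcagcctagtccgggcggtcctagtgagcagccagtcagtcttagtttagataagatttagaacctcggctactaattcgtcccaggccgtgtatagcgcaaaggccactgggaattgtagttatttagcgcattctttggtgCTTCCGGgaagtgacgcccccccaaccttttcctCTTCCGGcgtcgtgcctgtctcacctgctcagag
Eif3d: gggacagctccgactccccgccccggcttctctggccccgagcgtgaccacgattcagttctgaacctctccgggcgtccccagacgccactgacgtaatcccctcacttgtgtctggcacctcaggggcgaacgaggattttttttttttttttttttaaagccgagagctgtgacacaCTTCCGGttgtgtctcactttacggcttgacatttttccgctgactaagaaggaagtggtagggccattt
Eif3g: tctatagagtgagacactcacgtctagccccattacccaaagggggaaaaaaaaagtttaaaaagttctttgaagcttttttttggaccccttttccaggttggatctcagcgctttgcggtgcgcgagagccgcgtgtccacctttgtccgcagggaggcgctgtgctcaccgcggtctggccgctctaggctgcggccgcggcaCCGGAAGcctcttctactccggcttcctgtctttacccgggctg
Eif3l: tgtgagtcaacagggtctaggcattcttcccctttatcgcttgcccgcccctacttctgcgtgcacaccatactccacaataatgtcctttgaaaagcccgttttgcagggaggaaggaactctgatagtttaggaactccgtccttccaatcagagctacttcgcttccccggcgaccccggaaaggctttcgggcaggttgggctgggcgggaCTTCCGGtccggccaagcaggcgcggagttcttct
The first base of the match lay 44 bases before the start in Eif3g, 70 before it in Eif3d and 35 before it in Eif3l, and Eif3c held it at 68 and at 34 bases before the start.

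The initiation factor genes made up little of the RNA before the 4-cell stage. They summed to 0.725% and 0.823% of all FPKM in MII oocytes, 0.707% and 0.871% in 2-cell controls and 0.876% and 0.99% in 2-cell Ago2 kd embryos. In 4-cell embryos the share was 1.79% and 2.13% in controls and 1.45% and 1.6% after the knockdown, above each of the 6 earlier libraries. The number of members at or above 10 FPKM in both libraries of a group was 15 in oocytes, 12 in each group of 2-cell embryos, 33 in 4-cell controls and 24 in 4-cell Ago2 kd embryos. In single libraries, by replicate, the members at or above 10 FPKM numbered 20 and 16 in oocytes and 12 to 18 in 2-cell embryos. They numbered 37 in each 4-cell control and 27 and 36 in the 4-cell knockdown. Over all genes, the number above 10 FPKM in single libraries was 2936 and 2800 in oocytes and 2027 to 2335 in 2-cell embryos. It was 2892 and 2641 in the 4-cell controls and 2154 and 2845 in the 4-cell knockdown. Part of the low 2-cell counts and shares are the listed 0s of Eif3b, Eif3d, Eif3e, Eif3l and Eif4e2. The 4 members at or above 10 FPKM in every library were Eif1b, Eif5a and the pseudogenes Eif4a-ps4 and Eif5al3-ps. The 5 members below 1 FPKM in every library were the kinase genes Eif2ak2 and Eif2ak4, which encode PKR and GCN2, Eif4ebp3, and the pseudogenes Eif1-ps1 and Eif1-ps3.

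**Figure D1:**
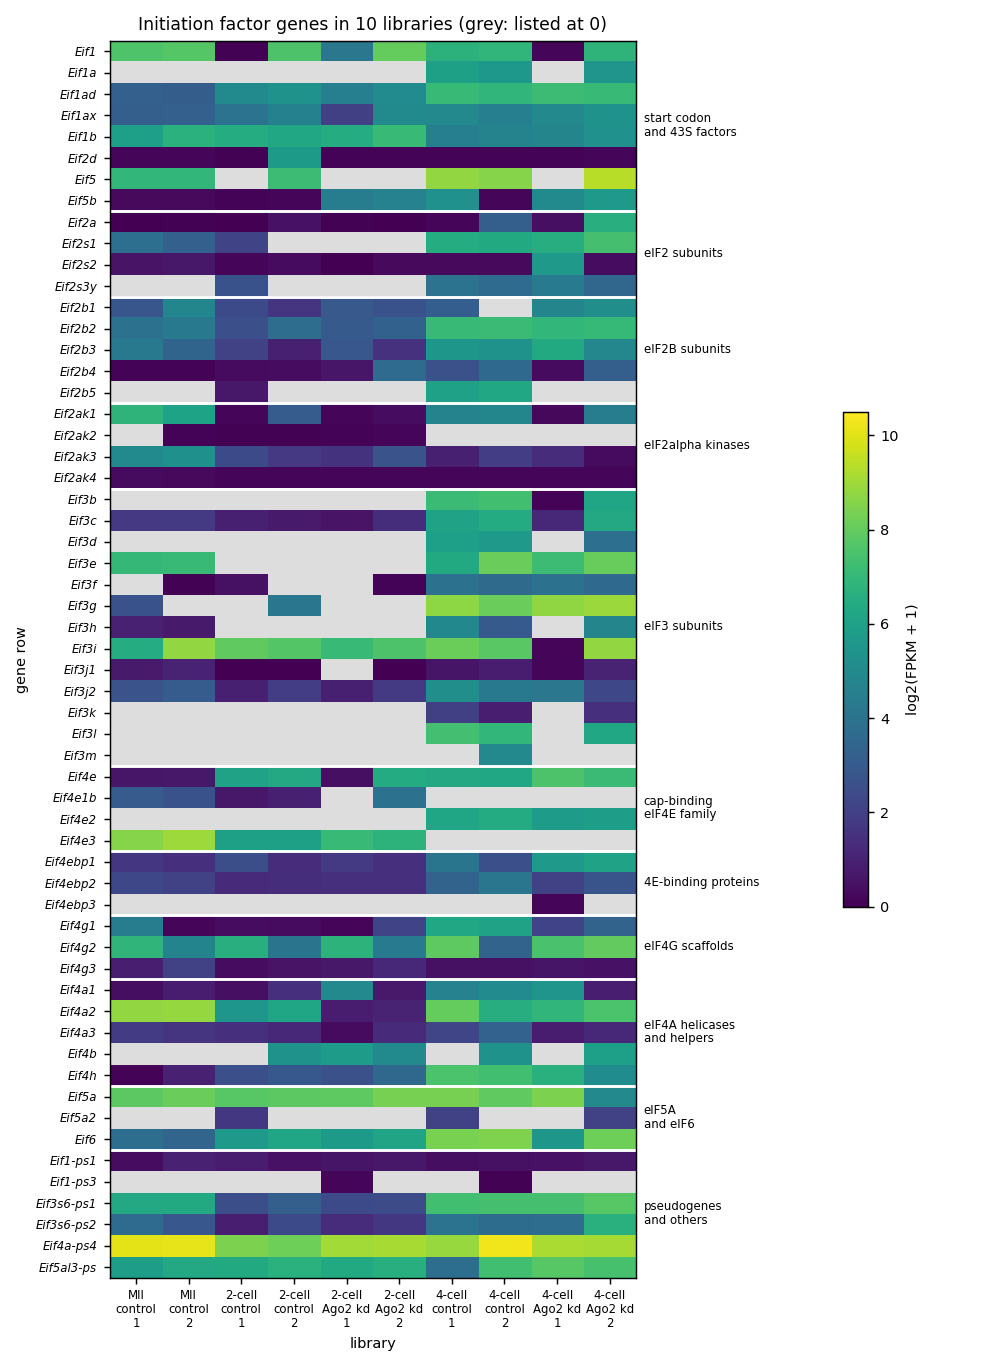
Each row is an initiation factor gene and each column a library, numbered by its replicate, and the colour gives log2(FPKM + 1); grey cells are listed at 0. The 4-cell control columns hold 33 genes at or above 10 FPKM in both libraries, against 12 in 2-cell controls, where Eif3b, Eif3d, Eif3e, Eif3l and Eif4e2 have the listed 0s of their block.

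**Figure D2:**
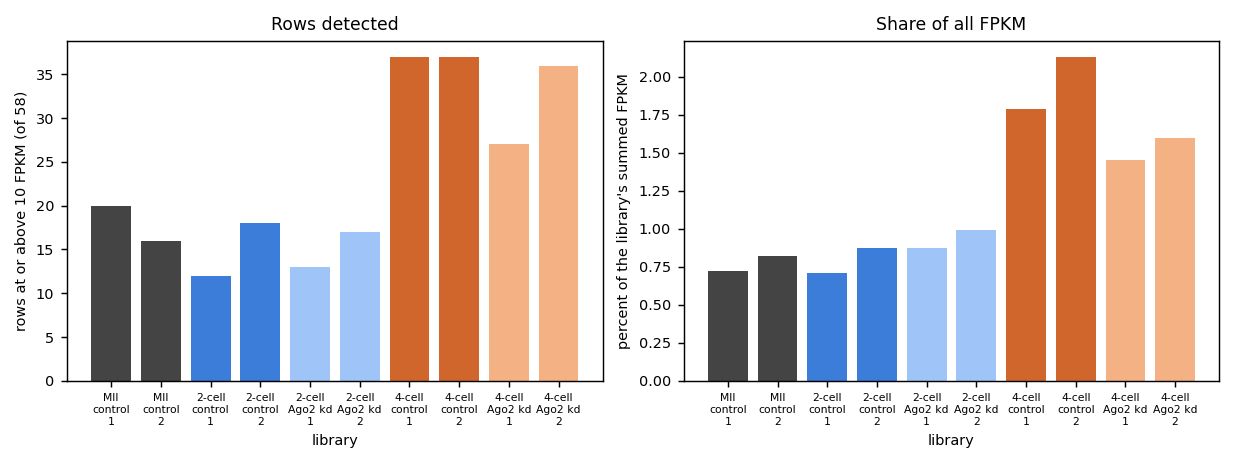
The bars give, for each library, the number of the 58 rows at or above 10 FPKM (left) and their percent of the library's summed FPKM (right). The share lies between 0.707% and 0.99% in the 6 oocyte and 2-cell libraries and between 1.45% and 2.13% in the 4 libraries of 4-cell embryos. The 2-cell bars take the listed 0s of Eif3b, Eif3d, Eif3e, Eif3l and Eif4e2 as they stand.

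From oocyte to 2-cell control, which asks what happens to the stored transcripts, 2 of the 49 members tested were called higher and 6 lower (limma on log2(FPKM + 1), adjusted p below 0.05 over all genes). Over all genes, 6.54% rose and 14.2% fell. The members that rose were Eif1ad, a relative of eIF1A, and Eif4h, a helper of the eIF4A helicase. Those called lower were Eif3e, whose 2-cell values were all listed at 0, Eif4a2, Eif4e3, Eif2ak3 (the gene of PERK, the kinase of the endoplasmic reticulum that phosphorylates eIF2alpha) and the pseudogenes Eif3s6-ps1 and Eif4a-ps4. The 2-cell 0s of Eif3e are those of its block, so the test is void for it at this step. From 2-cell to 4-cell control, which spans the time in which the embryo's own transcripts accumulate, 22 members were called higher (44.9%) and 2 lower (4.08%), against 21.1% and 17.5% of all genes. The members that fell were Eif4e3 and Eif1b. The median difference was 2.52 on the log2 scale over the members and 0.24 over all genes, and the latter was 0.07 after the libraries were scaled to the same median, with 2.34 for the members. Of the 22, 2 (Eif1ad and Eif4h) were also called higher at the first step and 3 (Eif3e, Eif3s6-ps1 and Eif4a-ps4) lower. Of the 22, 7 (Eif1a, Eif2b5, Eif3b, Eif3d, Eif3f, Eif3l and Eif4e2) reached 1 FPKM in 4-cell libraries alone and so had to differ once they passed the filter on low values. A further one, Eif3e, shares with 4 of these the block of 1051 rows in which nearly all 2-cell values are 0. The test is void for the 8, whose values are given as a description, and 14 remain. The 44.9% counts the 8, and the 21.1% of all genes also holds such rows, so the excess cannot be sized from these shares. In 4-cell controls against oocytes, 18 members were higher and 4 lower, against 22% and 26.3% of all genes. All 7 members named above that reached 1 FPKM in 4-cell libraries alone are among the 18, so the test is void for them here too. It is also void for Eif2s3y, another of the 18, a Y-linked gene that oocytes of females cannot express. The lower ones were Eif4e3, Eif2ak3, Eif1b and Eif4a2. These comparisons share control libraries, so their counts are not separate evidence.

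Scaling changed the balance of the first step. Over all genes, 571 rose and 1240 fell without scaling, and 766 rose and 874 fell after scaling to the same median, while 4 members then rose. Of the 22 calls of a higher level at the second step, 15 were in the first block of the table and 7 in later blocks. When only genes above 0 in all libraries compared were kept, 11 of 30 members rose (36.7%), against 24.2% of 5025 genes, and 1 fell. At the second step 12 of the 22 stayed called, among them 5 of the 8 with a void test, when each compared library was left out in turn, and without 2-cell control replicate 1, 2-cell control replicate 2 or 4-cell control replicate 1, 14 members were called higher in each case; 1 was lower without 2-cell control replicate 1 or 4-cell control replicate 1. At the first step, 1 rise was called without either oocyte library or without 2-cell control replicate 1, and 3 falls without MII oocyte replicate 2. Against oocytes, 10 members were higher and 2 lower in 4-cell controls without MII oocyte replicate 2.

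**Figure D3:**
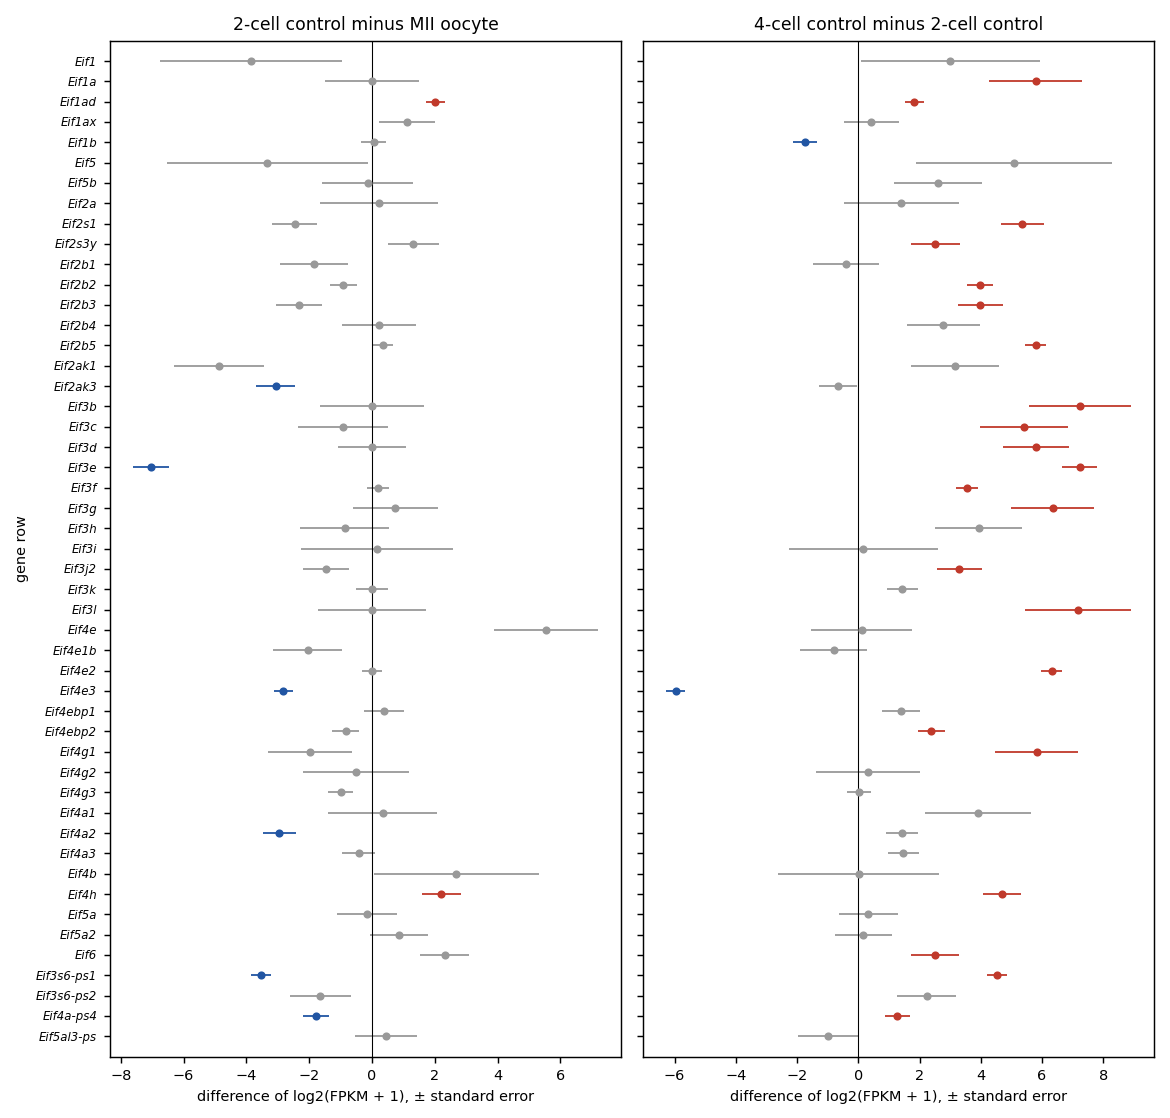
Each point is the difference of mean log2(FPKM + 1) for 1 of the 49 tested genes between successive control groups of 2 libraries, with its standard error from limma; red is a rise and blue a fall at an adjusted p below 0.05, grey is not called. In the right panel 22 points are red and 2 are blue, and 8 of the red ones (Eif1a, Eif2b5, Eif3b, Eif3d, Eif3e, Eif3f, Eif3l and Eif4e2) rest on listed 0s or on a filter passed by 4-cell libraries alone. In the left panel the blue point of Eif3e also rests on listed 0s.

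The eIF3 complex, the scaffold of the small ribosomal subunit, had 13 rows, of which 11 were tested. From the 2-cell to the 4-cell control, 8 were called higher and none lower, but Eif3b, Eif3d, Eif3e and Eif3l lie in the block of rows in which over 99% of the 2-cell values are 0, and Eif3f reached 1 FPKM in 4-cell libraries alone. These 5 calls are set by the table or the filter, which leaves Eif3c, Eif3g and Eif3j2. In 2-cell controls, 7 of the 13 rows were listed at 0 in both libraries (Eif3b, Eif3d, Eif3e, Eif3h, Eif3k, Eif3l and Eif3m), and the same 7 were listed at 0 in both 2-cell Ago2 kd libraries. Eif3i, which encodes a WD-repeat subunit, was the eIF3 row with the highest level in both 2-cell controls (244 and 206 FPKM), and its oocyte libraries (88.9 and 450.3 FPKM) and 4-cell controls (280 and 227 FPKM) overlapped. Of the eIF3 rows, 1 and 3 were at or above 1 FPKM in 2-cell control replicates 1 and 2, and 11 in each 4-cell control.

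Eif3b, one of the core subunits, was listed at 0 in both oocyte libraries and all 4 libraries of 2-cell embryos, and had 143 and 160 FPKM in the 4-cell controls and 0.0824 and 71.4 FPKM in the 4-cell knockdown. With the 2-cell values of its block at 0, no difference between the stages can be read from it. Eif3l was likewise listed at 0 in oocytes and 2-cell embryos, and had 165 and 123 FPKM in the 4-cell controls. In both genes the 4-cell controls are the highest libraries listed, and whether the transcripts were lacking before cannot be told. Eif3g, whose product binds RNA, had 5.27 FPKM and a listed 0 in oocytes, a listed 0 and 16.4 FPKM in the 2-cell controls, and 416 and 277 FPKM in the 4-cell controls. It had the highest FPKM of the eIF3 rows in both 4-cell controls, it rose by 6.35 (standard error 1.36, adjusted p = 0.0106 from limma), and the call was lost without 4-cell control replicate 1 and with only the 4 libraries compared. Its 4-cell Ago2 kd libraries had 435 and 488 FPKM, above both controls, a difference of 0.44 that was not called (adjusted p = 1 from limma).

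Eif3e, which encodes a PCI-domain subunit, had 125 and 135 FPKM in MII oocytes, was listed at 0 in each library of 2-cell embryos, and had 82.4 and 270.2 FPKM in the 4-cell controls and 147 and 264 FPKM in the 4-cell knockdown. The oocyte and 4-cell ranges overlapped. The 2-cell 0s are those of its block, so no fall or return can be read from this row. Its processed pseudogene Eif3s6-ps1, on chromosome 11, lies in the first block and was never at 0, with 80.3 and 83.0 FPKM in MII oocytes, 4.67 and 7.999 FPKM in the 2-cell controls and 158 and 167 FPKM in the 4-cell controls. It fell 12.9-fold to the 2-cell stage (adjusted p = 0.0007 from limma) and rose 25.7-fold to the 4-cell stage (adjusted p = 0.000145 from limma). Of the 50-base words of the pseudogene, 34.2% also occur in transcripts of Eif3e, so reads of the 2 rows could be shared. Eif3c and Eif3j2 rose at the second step, and 90.8% of the words of Eif3j2 occur in Eif3j1, a row that was at 1.02 FPKM or less in all libraries, so the 2 cannot be separated. For Eif3c, with 0.891 and 0.710 FPKM in the 2-cell controls and 66.2 and 87.2 FPKM in the 4-cell controls, the ratio of the means was 95.8. The call of Eif3c was lost with any 1 of the 4 libraries left out and with no filter on low values. Eif3d had 59.8 and 50.04 FPKM and Eif3f 14.1 and 11.5 FPKM in the 4-cell controls. Eif3h, Eif3i and Eif3k were not called at this step, and Eif3m was listed at 0 but for 29.95 FPKM in 4-cell control replicate 2.

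In the eIF4E family, which binds the cap, Eif4e3 was the member with the highest FPKM in oocytes and Eif4e or Eif4e2 in 4-cell controls. Eif4e3, on chromosome 6 (99625135 to 99666771, GRCm38 as for all positions here), measured 385 and 501 FPKM in MII oocytes, 61.6 and 61.3 FPKM in the 2-cell controls, and was listed at 0 in all 4 libraries of 4-cell embryos. Its levels did not overlap between stages. It was 7.22 times lower in 2-cell controls than in oocytes, a fall of 2.82 on the log2 scale (standard error 0.31, adjusted p = 0.00141 from limma), and lower again at the 4-cell stage (adjusted p = 5.56e-05 from limma). Eif4e, the canonical cap-binding factor, had 0.565 and 0.604 FPKM in MII oocytes, 65.1 and 80.7 FPKM in the 2-cell controls and 79.2 and 77.0 FPKM in the 4-cell controls. Both 2-cell and 4-cell controls lay above both oocyte libraries, and the difference from oocytes passed the test at the 4-cell stage (5.64, standard error 1.65, adjusted p = 0.0268 from limma) and missed it at the 2-cell stage (5.54, standard error 1.65, adjusted p = 0.0562). The 4-cell call was lost when either oocyte or either 4-cell control library was left out and with no filter on low values.

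Eif4e2, on chromosome 1 (87213914 to 87240488), encodes 4EHP, a relative that binds the cap without recruiting eIF4G. It was listed at 0 in all 6 oocyte and 2-cell libraries and had 70.8 and 87.1 FPKM in the 4-cell controls and 54.6 and 57.2 FPKM in the 4-cell knockdown. It lies in the block in which over 99% of the 2-cell values are 0 and passed the filter through 4-cell libraries alone, so no difference between stages can be read from it. Eif4e1b, the germ cell member, had 7.19 and 5.27 FPKM in MII oocytes, 0.592 and 0.892 FPKM in the 2-cell controls and a listed 0 in the 4-cell libraries. The groups did not overlap, and no step of it was called (adjusted p = 0.262 and 0.604 from limma).

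Per length, Eif4e3 made up 98% and 98.8% of the summed FPKM of the 4 family members in oocytes, and 48.4% and 42.9% in 2-cell controls, where Eif4e made up 51.2% and 56.5%. The shares take listed 0s as they stand, of Eif4e2 in oocytes and 2-cell controls and of Eif4e3 and Eif4e1b in 4-cell controls. Each share printed would be lower if such a row was present but not reported. In 4-cell controls, Eif4e made up 52.8% and 46.9% and Eif4e2 the remaining 47.2% and 53.1%. The sum of the 4 rows was 393 and 507 FPKM in MII oocytes, 127 and 143 FPKM in the 2-cell controls and 150 and 164 FPKM in the 4-cell controls.

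**Figure D4:**
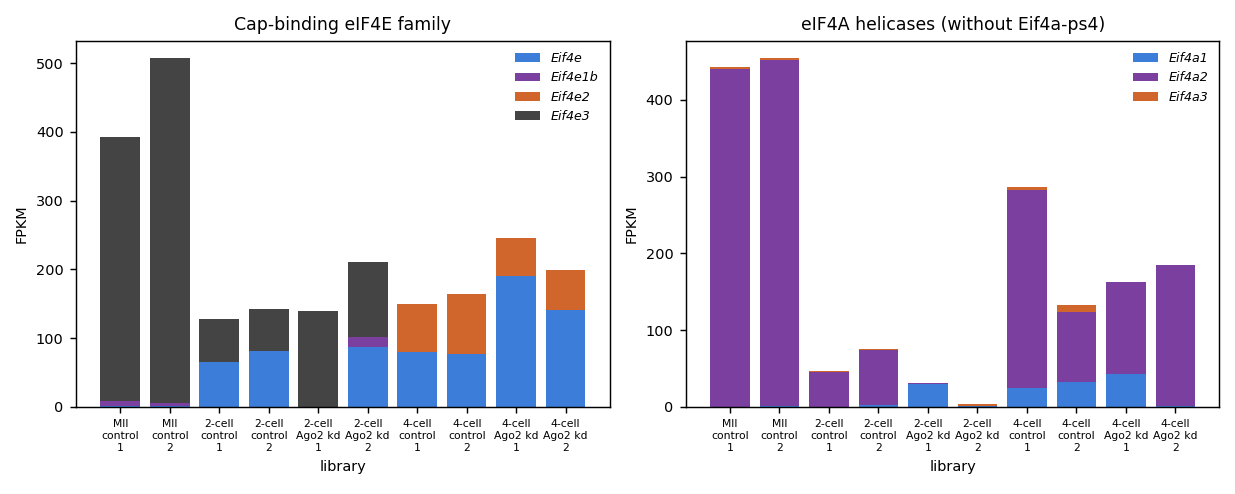
The bars give the FPKM of each cap-binding gene (left) and each eIF4A gene (right), stacked, for each library, numbered by its replicate. Eif4e3 fills 98% and 98.8% of the left bars in oocytes and is listed at 0 in 4-cell embryos, and Eif4a2 falls from 440 and 452 FPKM in MII oocytes to 0.788 and 1.05 FPKM in 2-cell Ago2 kd embryos.

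The 4E-binding proteins hold eIF4E away from eIF4G. Eif4ebp1 had 2.12 and 1.71 FPKM in MII oocytes, 4.73 and 1.51 FPKM in the 2-cell controls and 15.96 and 4.87 FPKM in the 4-cell controls, and no control step of it was called. Eif4ebp2 had 3.86 and 3.14 FPKM in MII oocytes, 1.41 and 1.63 FPKM in the 2-cell controls and 9.11 and 16.3 FPKM in the 4-cell controls. The 4-cell controls lay above all earlier libraries, and Eif4ebp2 rose from the 2-cell to the 4-cell stage by 2.39 (standard error 0.43, adjusted p = 0.00554 from limma). Of the eIF4G scaffolds, Eif4g1 had 20.5 and 0.145 FPKM in MII oocytes, 0.280 and 0.232 FPKM in the 2-cell controls and 75.8 and 65.0 FPKM in the 4-cell controls. One oocyte library lay above both 2-cell controls and the other below both, and both 4-cell controls lay above all earlier libraries. The ratio of the 4-cell to the 2-cell mean was 275, on the log2(FPKM + 1) scale a rise of 5.82 (standard error 1.34, adjusted p = 0.014 from limma), and the call was lost when any 1 of the 4 libraries was left out (adjusted p up to 0.0667 over all alternatives). Eif4g2 (DAP5), which acts without eIF4E, spread from 9.16 to 252 FPKM over the libraries, and Eif4g3 from 0.265 to 3.08 FPKM, with no call in a control step.

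Of the helicase genes, Eif4a2 had the highest FPKM in the control libraries. It lies on chromosome 16 (23107444 to 23114136) and had 440 and 452 FPKM in MII oocytes, 44.7 and 72.7 FPKM in the 2-cell controls, and 258 and 91.6 FPKM in the 4-cell controls. The groups did not overlap, with oocytes highest and 2-cell controls lowest. The fall to the 2-cell stage was 7.6-fold (-2.95, standard error 0.53, adjusted p = 0.00891 from limma), lost without MII oocyte replicate 1, MII oocyte replicate 2 or 2-cell control replicate 1 and with quantile normalization, and the later rise was not called (1.42, adjusted p = 0.0743). Eif4a1 had 0.302 and 0.785 FPKM in MII oocytes, 0.346 and 1.75 FPKM in the 2-cell controls and 24.3 and 32.2 FPKM in the 4-cell controls, and no difference of it was called. The row of its processed pseudogene Eif4a-ps4, at chromosome 1 (60703932 to 60705149), had the highest FPKM of all members in every library but 4-cell Ago2 kd replicate 2, with 1067 and 1112 FPKM in MII oocytes, 341 and 290 FPKM in the 2-cell controls and 469 and 1229 FPKM in the 4-cell controls. It fell by 1.79 and rose by 1.27 on the log2 scale (adjusted p = 0.022 and 0.0457 from limma), and both calls were lost after scaling to the same median, with quantile normalization, with no filter and when either 2-cell control was left out. Of its 50-base words, 95.7% occur in transcripts of Eif4a1, so the reads of this row cannot be told apart from those of Eif4a1. Eif4h rose at both steps, from 0.0688 and 0.937 FPKM in MII oocytes to 4.90 and 6.42 FPKM and then to 182 and 159 FPKM in the 4-cell controls. The groups did not overlap, the second rise was 30.1-fold (4.69, standard error 0.62, adjusted p = 0.00152 from limma), and the first (adjusted p = 0.0476) was lost when any library compared was left out, with no filter, with quantile normalization and with only the groups compared. Eif4b, another helper of the helicase, had a listed 0 beside 40.2 or 41.5 FPKM in the controls of each embryo stage, and Eif4a3, the helicase of the exon junction complex, spread from 0.255 to 8.93 FPKM over all libraries.

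Both eIF2 subunit rows that were tested, Eif2s1 and Eif2s3y, rose at the second step. Eif2s1, which encodes eIF2alpha, the target of the stress kinases, had 13.4 and 8.36 FPKM in MII oocytes, 3.47 FPKM and a listed 0 in 2-cell controls and 89.3 and 82.4 FPKM in the 4-cell controls. The groups did not overlap, and it rose by 5.36 (standard error 0.71, adjusted p = 0.00154 from limma), while its fall from the oocyte was not called (adjusted p = 0.052). Eif2s3y, the Y-linked copy of eIF2gamma, was listed at 0 in both oocyte libraries, had 5.18 FPKM and a listed 0 in 2-cell controls, and 15.0 and 11.8 FPKM in the 4-cell controls. This rise (2.52, standard error 0.81, adjusted p = 0.0467 from limma) was lost without 2-cell control replicate 2 and without either 4-cell control. It was also lost with a pseudocount of 0.1, no filter, scaling to the same median, quantile normalization or only the groups compared. The level of Eif2s3y in embryos also depends on how many of them were male, which was not tested. Eif2s2, the gene of eIF2beta, was at or below 0.579 FPKM in all libraries but 4-cell Ago2 kd replicate 1, which had 49.3 FPKM. Eif2a, a separate factor that also binds initiator tRNA, was at or below 0.408 FPKM in MII oocytes and 2-cell embryos and had 0.0929 and 8.12 FPKM in the 4-cell controls.

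Of the 5 eIF2B subunits, 3 were called higher in the 4-cell than in the 2-cell control, 1 of them (Eif2b5) through listed 0s. Eif2b2 had 14.1 and 17.7 FPKM in MII oocytes, 4.90 and 12.4 FPKM in the 2-cell controls and 138 and 140 FPKM in the 4-cell controls, with a ratio of the last means of 16. Eif2b3 rose 21.4-fold, from 3.18 and 0.893 FPKM to 45.7 and 41.5 FPKM. Eif2b5, which encodes the catalytic epsilon subunit, lies on chromosome 16 (20498817 to 20509323). It was listed at 0 in both oocyte libraries, had 0.610 FPKM and a listed 0 in 2-cell controls, and 62.8 and 75.7 FPKM in the 4-cell controls, above all earlier libraries. It reached 1 FPKM in the 4-cell controls alone, so that its test had to find a difference and is not given. The kinase gene Eif2ak3 was lower in the later stages, with 31.0 and 37.4 FPKM in MII oocytes, 4.17 and 2.39 FPKM in the 2-cell controls and 0.905 and 2.75 FPKM in the 4-cell controls. The oocytes lay above both later groups, which overlapped, and the fall to the 2-cell stage was 10.4-fold (-3.06, standard error 0.62, adjusted p = 0.0139 from limma), a call lost without either oocyte library or without 2-cell control replicate 2, and with a pseudocount of 0.1 or quantile normalization. Eif2ak1, the gene of the heme-regulated kinase HRI, had 113 and 68.1 FPKM in MII oocytes, 0.0930 and 7.43 FPKM in the 2-cell controls and 24.9 and 27.1 FPKM in the 4-cell controls, and neither step was called.

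Factors of start codon selection were mixed. Eif1ad had 8.34 and 7.53 FPKM in MII oocytes, 30.9 and 40.2 FPKM in the 2-cell controls and 133 and 121 FPKM in the 4-cell controls. No library of one group reached the range of another, and it rose 4.49-fold (2.02, standard error 0.31, adjusted p = 0.00502 from limma) and 3.57-fold (1.82, standard error 0.31, adjusted p = 0.00449), also with each library left out. Eif1b, a paralogue of Eif1, had 59.2 and 104.6 FPKM in MII oocytes, 89.2 and 74.6 FPKM in the 2-cell controls and 22.4 and 25.1 FPKM in the 4-cell controls. It fell 3.45-fold at the second step (-1.74, standard error 0.40, adjusted p = 0.0139 from limma), a call lost without 2-cell control replicate 1 or 4-cell control replicate 1. Eif1a was listed at 0 in oocytes and 2-cell embryos and had 62.0 and 47.6 FPKM in the 4-cell controls beside 30.0 and 22.5 FPKM of its X-linked paralogue Eif1ax, and it passed the filter through 4-cell libraries alone. Eif5, Eif1 and Eif5b had a library at or below 0.0936 FPKM beside one of 38.2 FPKM or more in at least 1 control group, and none of their steps was called. Eif2d, which can deliver tRNA without GTP, had 51.3 FPKM in 2-cell control replicate 2 and under 0.12 FPKM in the other libraries.

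Eif5a, the hypusine-carrying factor of elongation and termination, had levels close to each other in the control groups, with 230.4 and 270.5 FPKM in MII oocytes, 217 and 230.4 FPKM in the 2-cell controls and 325 and 243 FPKM in the 4-cell controls. The 2-cell controls lay at or below the oocytes and below the 4-cell controls, and the differences of -0.16 and 0.33 were smaller than their standard error of 0.97. Eif5a2 was listed at 0 in 7 of the 10 libraries and did not exceed 3.11 FPKM. Eif6, which keeps the large ribosomal subunit apart from the small one, had 12.9 and 9.87 FPKM in MII oocytes, 49.7 and 72.8 FPKM in the 2-cell controls and 337 and 355 FPKM in the 4-cell controls. The groups did not overlap, and only the second rise, 5.65-fold, was called (2.50, standard error 0.78, adjusted p = 0.0409 from limma), a call lost when any 1 of the 4 libraries was left out and with no filter.

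The knockdown was compared with the controls of its own stage to ask which initiation factor transcripts change when Ago2 is depleted. At the 2-cell stage 0 of 49 members were higher and 1 was lower by limma (adjusted p below 0.05), against 0.332% and 0.218% of all genes. At an unadjusted p below 0.05 there were 2 higher, Eif4e3 and Eif5b, and 1 lower, against 2.96% and 3% of all genes. The called one was Eif4a2, with 44.7 and 72.7 FPKM in controls and 0.788 and 1.05 FPKM in Ago2 kd embryos. Both knockdown libraries lay below both controls and below every other library of the series, where the lowest was 44.7 FPKM. The ratio of the means was 63.9, a difference of -4.92 on the log2 scale (standard error 0.53, adjusted p = 0.0137 from limma). In the same libraries, Eif4a1 had 0.346 and 1.75 FPKM in controls and 30.1 and 0.631 FPKM after the knockdown. The row Eif4a-ps4 had 532 and 554 FPKM, above both controls, a difference of 0.78 that was not called (adjusted p = 1). Of the 50-base words of Eif4a2, 10.6% occur in transcripts of other genes. The call of Eif4a2 was lost without 2-cell control replicate 2 or 2-cell Ago2 kd replicate 1 when the fit held only the 4 libraries compared and with a replicate block (adjusted p up to 0.215 over all alternatives), and without 2-cell Ago2 kd replicate 2, 2 members were lower. Without 2-cell Ago2 kd replicate 1, 1 member was higher.

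The cap-binding genes of 2-cell Ago2 kd embryos were not called. Eif4e3 had 139 and 110 FPKM, above both controls of 61.6 and 61.3 FPKM (standard error of the log2 difference 0.31, adjusted p = 0.515 from limma). Eif4e had 0.361 FPKM in replicate 1 and 86.5 FPKM in replicate 2, one below and one above both controls, and Eif4e1b had a listed 0 and 14.3 FPKM in the same order. Eif5b, the GTPase of subunit joining, had 21.0 and 24.5 FPKM against 0.0747 and 0.106 FPKM in the controls, with no overlap (4.44, standard error 1.44, adjusted p = 0.557 from limma). Eif4ebp1, Eif4ebp2 and Eif4g1 were at or below 4.73 FPKM in all 4 libraries of 2-cell embryos.

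At the 4-cell stage 0 members were higher and 1 was lower by limma, against 1.23% and 2.77% of all genes. The unadjusted p was below 0.05 for 2 higher and 7 lower members of 49, against 7.37% and 8.07% of all genes. The called one was Eif2b5, with 62.8 and 75.7 FPKM in controls and a listed 0 in both Ago2 kd libraries. Both knockdown libraries lay below both controls. The row passed the filter through these controls alone and so had to differ from any group at 0; its adjusted p of 0.00022 from limma is a description, and the call was lost when the fit held only these 4 libraries. When only genes above 0 in all libraries compared were kept, the row was not tested and 0 members were lower. In the same embryos Eif2b2 had 124 and 129 FPKM against 138 and 140 FPKM in controls, and Eif2b3 had 81.4 and 28.3 FPKM against 45.7 and 41.5 FPKM. Eif2b1 had 26.1 and 35.7 FPKM against 7.84 FPKM and a listed 0 in controls (adjusted p = 0.177).

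The other members at an unadjusted p below 0.05 did not pass the adjustment: Eif2b1 and Eif4ebp1 (higher) and Eif3b, Eif3d, Eif4a3, Eif4ebp2, Eif4g1 and Eif4h (lower). Eif3b and Eif3d passed the filter through 4-cell libraries alone and had 0.0824 FPKM and a listed 0 in 4-cell Ago2 kd replicate 1. Eif4g1 had 3.32 and 9.19 FPKM in Ago2 kd embryos against 75.8 and 65.0 FPKM in controls, an 11.3-fold lower mean, and the groups did not overlap (-3.42, standard error 1.34, adjusted p = 0.288 from limma). Eif4ebp1 had 48.5 and 66.0 FPKM against 15.96 and 4.87 FPKM, both knockdown libraries above both controls (2.53, standard error 0.63, adjusted p = 0.0902), and was called without 4-cell control replicate 1. Eif4ebp2 had 3.05 and 5.63 FPKM against 9.11 and 16.3 FPKM, both below both controls (-1.35, standard error 0.43, adjusted p = 0.181). Per length, Eif4ebp1 thus made up 93.9% and 92.1% of the summed FPKM of the 4E-binding proteins after the knockdown and 63.7% and 23% in controls. The cap-binding genes were not called, with 190 and 141 FPKM of Eif4e and 54.6 and 57.2 FPKM of Eif4e2 in Ago2 kd embryos, and Eif4e3 and Eif4e1b stayed listed at 0.

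No eIF3 subunit was called after the knockdown at the 4-cell stage. In Ago2 kd replicate 1, Eif3d, Eif3h, Eif3l and Eif3k were listed at 0, and Eif3b and Eif3i had 0.0824 and 0.105 FPKM. In replicate 2, Eif3b had 71.4 FPKM, Eif3d 13.2 FPKM, Eif3h 26.4 FPKM, Eif3l 76.1 FPKM and Eif3i 448 FPKM. For these 5 rows the knockdown libraries lay far apart, and replicate 1 is the library with the 14.6% of genes near 0 given above; the part of that library in the differences was not tested. Without it 3 members were lower, without replicate 2 there were 9, and without 4-cell control replicate 1 there were 2 lower and 3 higher; without 4-cell control replicate 2, 1 was higher. Of the 8 markers of oocytes and cleavage embryos, Dppa3, which embryos also express, made up most of the 4-cell sum, at 132 and 292 FPKM in the knockdown and 115 and 76.6 FPKM in controls. The sum of all 8 was 174 to 316 FPKM in the knockdown, where 5 reached 1 FPKM and Zp1, Zp2 and Bmp15 were listed at 0, and 82.5 to 126 FPKM in controls, where 4 did. Their part in the results was not tested.

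**Figure D5:**
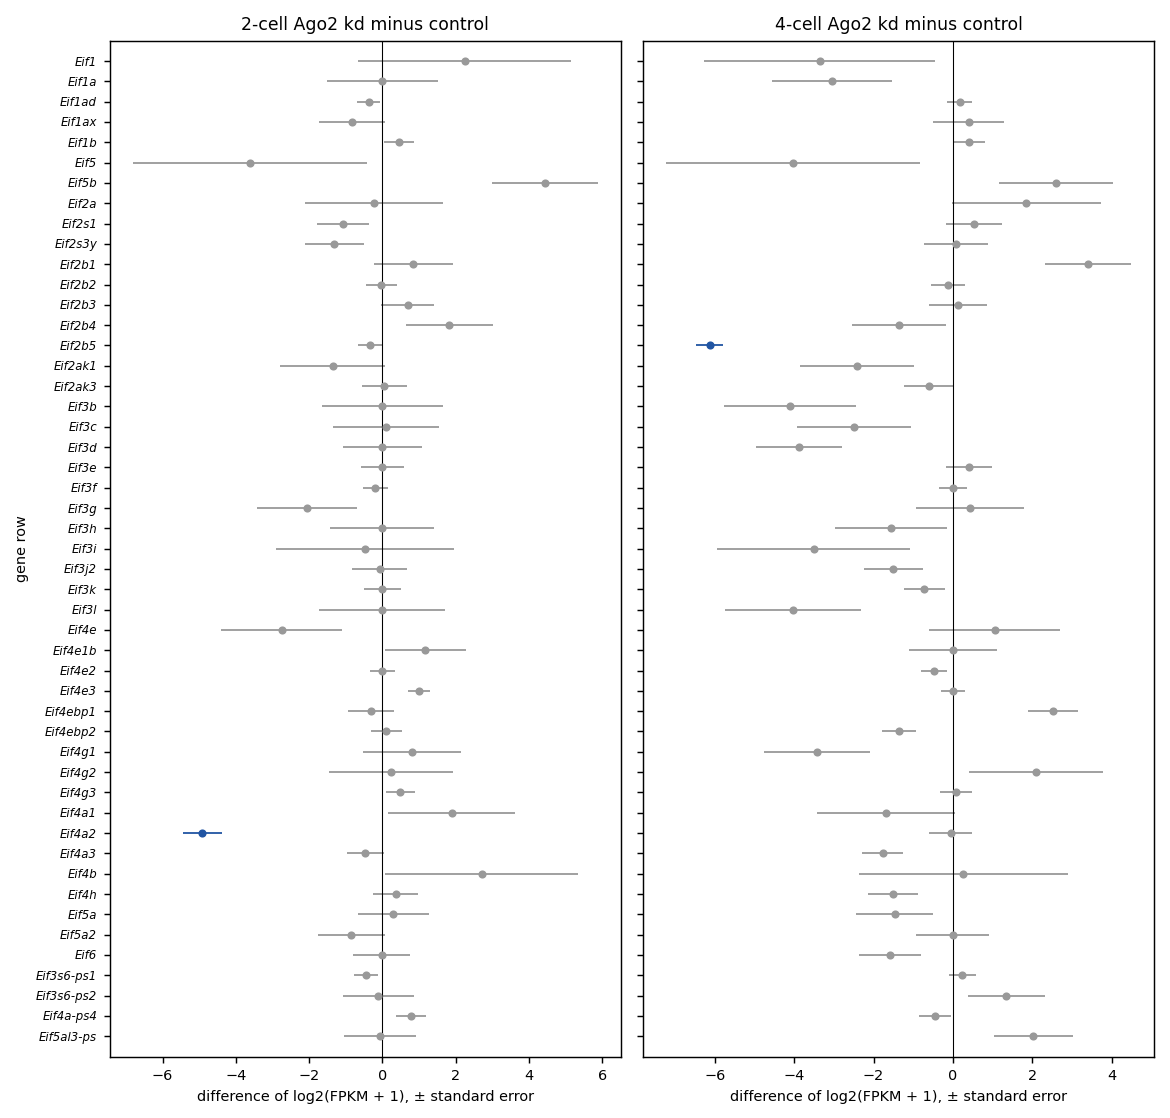
Each point is the difference of mean log2(FPKM + 1) between Ago2 kd and control embryos for 1 of the 49 tested genes, with 2 libraries a group and the standard error from limma; blue is a fall at an adjusted p below 0.05, grey is not called. The blue points are Eif4a2 at the 2-cell stage and Eif2b5 at the 4-cell stage. The point of Eif2b5 rests on listed 0s and on a filter passed by the 4-cell controls alone.

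The effect of the knockdown differed between stages for 1 member upwards and 1 downwards by the test of the difference itself, against 0.642% and 1.64% of all genes. Eif4a2, low in 2-cell Ago2 kd embryos, had 119 and 183.3 FPKM in the 4-cell knockdown, between its controls of 258 and 91.6 FPKM. The stage difference was 4.87 (standard error 0.75, adjusted p = 0.0231 from limma), and was lost without any 1 of the 2-cell libraries, with a replicate block and with only the groups compared. For Eif2b5 it was -5.79 (standard error 0.48, adjusted p = 0.00238 from limma), which rests on the same 2 control libraries and listed 0s as above. Without 2-cell control replicate 1 or replicate 2, 1 member in all had a stage difference, without 4-cell control replicate 2 there were 4, and without 4-cell Ago2 kd replicate 2 there were 9. No member differed at an unadjusted p below 0.05 in both stages.

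A list of 44 partners of the initiation factors was examined beside them: cap and poly(A) proteins, kinases of the mTORC1 pathway, the integrated stress response, recycling factors and enzymes that make hypusine. Of these, 39 had a row and 33 were tested. From oocyte to 2-cell control 2 of the 33 were called higher and 6 lower, beside 6.54% and 14.2% of all genes, and from 2-cell to 4-cell control 9 were higher and 4 lower, beside 21.1% and 17.5%. Both are near those shares, and no partner was called after the knockdown at either stage. The largest falls at the first step were those of Mknk1, a kinase of eIF4E (-6.11, 152 and 37.9 FPKM to 0.1004 and 0.132 FPKM), and of Cpeb1, a regulator of polyadenylation (-5.77, 108 and 50.4 FPKM to 0.498 and 0.244 FPKM). Cpeb1 reached 1 FPKM in the oocyte libraries alone, so its test had to find a difference and its values are a description. Asns, a target of the stress response, fell by 3.35. Ncbp2, of the nuclear cap-binding complex, was also called, through 2-cell values listed at 0 in a block where over 99% are. Both 2-cell libraries of each lay below both oocyte libraries. The rises at that step were those of Trib3, a target of the stress response (2.93), and Dohh, the second hypusine enzyme (1.89). Trib3 reached 1 FPKM only in the 2-cell controls and, at 1.40 FPKM, in 4-cell Ago2 kd replicate 1. It thus passed the filter through the group where it was high, and its call is a description.

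From the 2-cell to the 4-cell control, Abce1, the ribosome recycling factor, and Ncbp2 were called higher through blocks of listed 0s, and no difference can be read from them. Ncbp1, Mcts1 and Ddx3y were also called higher, but each reached 1 FPKM in 4-cell libraries alone, so their tests had to find a difference. Ncbp1 was listed at 0 in all earlier libraries and had 46.6 and 48.9 FPKM in the 4-cell controls. Dohh rose from 3.21 and 4.33 FPKM to levels of 57.8 and 40.2 FPKM (a difference of 3.38, adjusted p = 0.000892 by limma). Pabpc1l, an embryonic poly(A)-binding protein, had 20.8 and 13.0 FPKM in 2-cell controls and 0.0645 FPKM and a listed 0 in 4-cell controls. It was called lower (-4.08, adjusted p = 0.0251 from limma), but reached 1 FPKM in 2-cell libraries alone, so its test had to find a difference. Trib3 (-2.55) was also called lower, and it passed the filter through its 2-cell controls, as given above. The other falls were those of Eif4enif1 (-3.82) and Ppp1r15a (-1.84), which encodes a subunit of the eIF2alpha phosphatase. Between the 2-cell and the 4-cell controls, none of these genes overlapped.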

How the data were processed

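RNA-seq libraries of mouse MII oocytes and of control and Ago2 kd embryos were grouped by their labels, 2 in each of 5 groups. The authors trimmed reads, aligned them to GRCm38 (mm10) with HISAT2 2.1.0 and computed gene FPKM with StringTie; the deposited FPKM, 1 value per gene name and library, were used as they were. How rows were merged is not given in the sources used here, and depth is unknown. Differences were tested in R 4.3.3 with limma 3.58.1 on log2(FPKM + 1), which understates the change of low genes, with a variance trend and 1 mean per group over the 10 libraries (5 residual degrees of freedom), for the 8726 genes that reached 1 FPKM in 2 or more libraries. Tests were two-sided with Benjamini-Hochberg adjustment over all genes; a call is an adjusted p below 0.05. With 2 libraries against 2, an exact permutation test cannot pass 0.05.

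Positions and 50-base words shared between genes came from GENCODE M21 (GRCm38), in which all 58 members matched, and promoters from RefSeq. Named in full are members called in a knockdown comparison, up to 6 rises and 6 falls of each control step, and eIF4E, 4E-binding, eIF4A, eIF2 and eIF5A genes; further members are given in shorter form. Members and lists were chosen with earlier results of these data known. Alternatives were a pseudocount of 0.1, no filter, scaling to the same median, quantile normalization, a replicate block, only the compared groups, an unadjusted p, each library left out in turn and, chosen after seeing the data, only genes above 0 in all compared libraries. Figures were drawn with matplotlib 3.10.9.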

Additional observations from a re-analysis of the deposited data

Results flagged for a closer look

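The effect of the knockdown differed between the 2-cell and the 4-cell stage for 2 initiation factor genes, by the interaction term of limma. For Eif4a2 the difference between stages was 4.87 on the log2(FPKM + 1) scale (standard error 0.75, adjusted p = 0.0231 from limma), with both 2-cell Ago2 kd libraries below both controls and the 4-cell Ago2 kd libraries between their controls. For Eif2b5 it was -5.79 (standard error 0.48, adjusted p = 0.00238 from limma), with both 4-cell Ago2 kd libraries listed at 0 and 1 of the 4 libraries of 2-cell embryos above 0. This gene reached 1 FPKM in the 4-cell controls alone, so its difference rests on those 2 libraries and on listed 0s. The groups hold 2 libraries each, too few to look for outlying libraries within a group.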

How the results depend on the processing

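Depth is unknown, 2 libraries make a group, and a listed 0 cannot be told from a gene not reported, which limits every count here. In the order higher and lower, the counts of initiation factor genes were 2 and 6 from oocyte to 2-cell control, 22 and 2 from 2-cell to 4-cell control, 18 and 4 from oocyte to 4-cell control, 0 and 1 after the 2-cell knockdown, and 0 and 1 after the 4-cell knockdown, with 2 stage differences. Both the 22 and the 18 hold the 7 members that reached 1 FPKM in 4-cell libraries alone. Eif3e is among the 22 and among the 6 lower from oocyte to 2-cell control. The 18 also hold the Y-linked Eif2s3y, which oocytes of females cannot express. The 1 lower after the 4-cell knockdown and 1 of the 2 stage differences are Eif2b5, which passed the filter through the 4-cell controls alone. In the counts named, the test is void for these members.

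From oocyte to 2-cell control, the number higher was 1 with no filter, 4 after scaling to the same median, 4 with the compared groups only, 4 at an unadjusted p and 1 to 2 with a library left out, and the number lower was 3 after quantile normalization, 10 at an unadjusted p and 3 to 5 with a library left out. From 2-cell to 4-cell control, with only genes above 0 in all compared libraries, 11 were higher and 1 was lower, and with a library left out 14 to 18 were higher and 1 to 3 lower. From oocyte to 4-cell control these were 10 higher with only genes above 0, and 10 to 13 higher and 2 to 5 lower with a library left out. For the 2-cell knockdown, 2 were higher at an unadjusted p, 0 were lower with the compared groups only, and with a library left out 0 to 1 were higher and 0 to 2 lower. For the 4-cell knockdown, an unadjusted p gave 2 higher and 7 lower, 0 were lower with the compared groups only or with only genes above 0, and with a library left out 0 to 3 were higher and 1 to 9 lower. Stage differences numbered 1 with the compared groups only, 1 with only genes above 0, 5 at an unadjusted p and 1 to 9 with a library left out. The cause was not tested, beyond there being fewer genes or libraries in those fits. Of 136 recomputed counts, 91 stayed within 1.5 times the count reported and 45 did not.

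Samples with the same replicate number did not deviate together (r from -0.0931 to 0.0924), so the numbers do not pair them. With a replicate block, 1 gene was higher from oocyte to 2-cell control, 0 were lower after the 2-cell knockdown (Eif4a2 was lost; the smallest adjusted p of a member was 0.0524 from limma) and 1 had a stage difference; 21 were higher and 2 lower from 2-cell to 4-cell control.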
